A study of Mus musculus with 80 samples.

Results

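Cytoplasmic ribosomal protein genes were followed through the chromatin RNA of mouse embryonic stem (mES) cells in which METTL3, YTHDC1, ZCCHC8 or ZFC3H1 could be removed and Xist could be switched on. The members were taken by symbol (Rpl and Rps followed by a digit, Rpsa and Rplp0 to Rplp2, without the Rps6k kinases and the -ps pseudogenes), which gave 87 of the 22556 genes in each expression table. Of these, 52 carry the name of a large (60S) and 35 that of a small (40S) subunit protein. The symbols hold 9 paralogues and 1 gene that is not a ribosomal protein, Rps19bp1, whose product binds RPS19.

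ChrRNA-seq, the sequencing of RNA that stays with chromatin, was available from 80 libraries of 36 groups in Cast × 129S mES cells grown on mouse fibroblast feeders, with 8.58 M to 34.4 M counted reads a library. Every line carried a TetOn promoter in place of the endogenous Xist promoter. It lay on the Cast X in the METTL3, METTL3 transgene and ZFC3H1 lines and on the 129S X in the YTHDC1 and ZCCHC8 lines. By the study's list of lines, the Xist of the YTHDC1 and ZCCHC8 lines held a Bgl stem-loop array, which the other lines lacked. Every line carried the FKBP12 F36V degron on the protein named, which the compound dTAG-13 removes. Each line was sampled untreated, with Dox at 1.0 µg/mL for 24 h (Dox), with dTAG-13 for 26 h as its titles give it (dTAG), and with dTAG-13 for 2 h before 24 h of both (dTAG_Dox). METTL3, which places m6A on RNA within the writer complex, was tagged in 4 clones, at the N terminus in G4 and H1 and at the C terminus in C3 and H5. YTHDC1, the nuclear reader of m6A, was tagged in clones Y9F and Y12H, each sampled in 2 experiments. ZCCHC8, the scaffold of the NEXT complex that hands nuclear RNA to the exosome, was tagged in clones Z4F and Z12H. ZFC3H1, the scaffold of the PAXT connection to the same exosome, was tagged in clones 8H and 11A. The METTL3 transgene lines were made in clone H5 and carried GFP-METTL3 at Rosa26, as the wild-type (WT) or the D395A form. They were cells with both X chromosomes (XX, clones WT_P2B3 and D395A_1F) or XiO cells (clones WT_1A and D395A_9F). The study lists XiO cells as holding only the inactive X, the one that carries the TetOn promoter, with the active X not detected. Each transgene line was 1 clone in 2 experiments, so its p-values measure the spread between experiments and not between clones. The METTL3 lines had 4 libraries a group and all others 2.

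Some facts of the libraries bear on every result. Marker genes of mES cells summed to 617 to 2104 CPM (counts per 1 M counted reads) and fibroblast markers to 17.0 to 61.0 CPM. Of the 8 mES markers, 7 reached a mean of 1 CPM in every line, the other sets included. Sox2 was at 0 in every library of the ZFC3H1 line and the second YTHDC1 experiment, where Esrrb and Zfp42 were highest. Why Sox2 was at 0 was not tested. Xist was higher with Dox in 40 of 40 pairs of libraries, by at least 6.08-fold. Because dTAG-13 acts on the protein, the transcript of the tagged gene checks no label here. Reads were counted over whole transcript spans, introns and the small RNAs inside them included, so mature, unspliced and intron-borne RNA of a gene cannot be told apart, and fewer molecules on chromatin cannot be told apart from a changed mixture of cells.

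Ribosomal proteins are made in near equal amounts, and a cell spends much of its transcription on their short, highly active genes. Nearly all of their mRNAs begin at a C followed by a run of pyrimidines, the 5′ TOP motif, through which their translation is tied to growth signals. Many members also carry small nucleolar RNAs (snoRNAs) in their introns, which are cut out of the spliced intron and trimmed by exonucleases. C/D box snoRNAs guide ribose methylation and H/ACA snoRNAs guide pseudouridylation of ribosomal RNA.

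The members spanned 853 to 11773 bp with a median of 2970 bp, against 15760 bp over all genes. They lay on 19 chromosomes, with 83 on autosomes and 4 on the X (Rpl10, Rpl36a, Rpl39 and Rps4x). In GENCODE on the GRCm38 build, 30 members held 58 snoRNA genes on their own strand and 57 held none. The first bases of 5 members are shown as examples, 4 with a pyrimidine run near the annotated start and Rpl10l without it. The runs begin 3 (Rpl22l1), 8 (Rps12), 4 (Rps26) and 6 (Rpl39) bases after that start, so none begins at it as a TOP does. Each window runs from 10 bases before the RefSeq start (GRCm38) to 20 bases into the transcript, 5′ to 3′ on the gene's strand, and capitals mark a C followed by at least 5 pyrimidines, where that C lies within 10 bases of the start.
Rpl22l1, chr3:28805498-28805527, plus strand: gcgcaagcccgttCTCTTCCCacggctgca
Rps12, chr10:23787190-23787219, minus strand: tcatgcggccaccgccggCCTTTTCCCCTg
Rps26, chr10:128626487-128626516, minus strand: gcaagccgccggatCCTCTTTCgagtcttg
Rpl39, chrX:37085203-37085232, minus strand: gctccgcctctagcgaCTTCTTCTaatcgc
Rpl10l, chr12:66284382-66284411, minus strand: cctccattttgcggctggcggtgggcacgc

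Such a tract was found in 35 of the 66 members with a promoter entry (53.0%) and in 3703 of 16604 genes of the tables (22.3%), searched on the gene's own strand only. Rps16, Rps3a1, Rps19, Rps25, Rpl10, Rpl36a and Rps4x, whose values follow, had no tract in this window. Nor had Rpl10l, a copy of Rpl10 known from the testis, which has 1 exon. The RefSeq start used for Rps4x lay 1020 bases from the 5′ end of the counted gene, and that of Rps19 37 bases. For Rps4x the window thus says nothing about the start of the counted span.

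The snoRNAs of 3 host genes are shown because these 3 members had the largest increases of all members after ZCCHC8 depletion. Sequences are those of the GRCm38 genome, 5′ to 3′ on the gene's strand. Capitals mark TGATGA within the first 15 and CTGA within the last 15 bases, the letters of a C and a D box, or ACA 2 to 4 bases before the end.
AF357399 in Rps16, chr7:28351508-28351632, plus strand: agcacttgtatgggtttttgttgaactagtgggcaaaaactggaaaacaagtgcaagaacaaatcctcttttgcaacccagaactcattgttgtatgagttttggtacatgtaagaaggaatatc
Snora7a in Rpl32, chr6:115807975-115808114, minus strand: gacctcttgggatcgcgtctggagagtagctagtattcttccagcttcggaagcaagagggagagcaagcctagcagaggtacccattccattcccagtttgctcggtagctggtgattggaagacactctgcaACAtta
Snord73a in Rps3a1, chr3:86138791-86138858, minus strand: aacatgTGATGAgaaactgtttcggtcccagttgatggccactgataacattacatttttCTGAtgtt
Rnu73b in Rps3a1, chr3:86140618-86140688, minus strand: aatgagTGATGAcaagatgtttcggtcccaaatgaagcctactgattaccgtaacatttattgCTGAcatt

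Of 1507 snoRNA genes in GENCODE, 20.2% held both box letters in these places and 43.5% held ACA at the end. AF357399 held neither. The 3 intervals of Rps16 and Rps3a1 lay outside the exons of coding transcripts, and that of Snora7a overlapped an exon of a coding transcript of Rpl32.

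The members took 0.322% to 1.07% of the reads of a library. A gene was tested where its mean in a table was at least 1 CPM, which 80 members passed in all 6 expression tables. Rpl26, Rpl30, Rpl34, Rps27, Rps27rt and Rpl3l did not pass in any table, and Rpl10l did not pass in the XiO table. The first 5 of these overlap another gene of the table on the same strand, and the part of that overlap in their low values was not tested. Per kb of span, Rps12, a 40S protein gene, had the highest level (median 95.1 CPM per kb over all libraries) and Rpl34 the lowest level above 0 (0.0127 CPM per kb). Values for single libraries below are scaled CPM, in which each library was divided by the median ratio of its autosomal genes to the table's mean, and effects are differences of log2(scaled CPM + 1) from limma with Benjamini-Hochberg adjustment over all genes of a table. A depletion effect is the mean of dTAG_Dox minus Dox and dTAG minus untreated, and a Dox effect is the mean of Dox minus untreated and dTAG_Dox minus dTAG. A gene was called higher or lower at an adjusted p under 0.05.

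**Figure D1:**
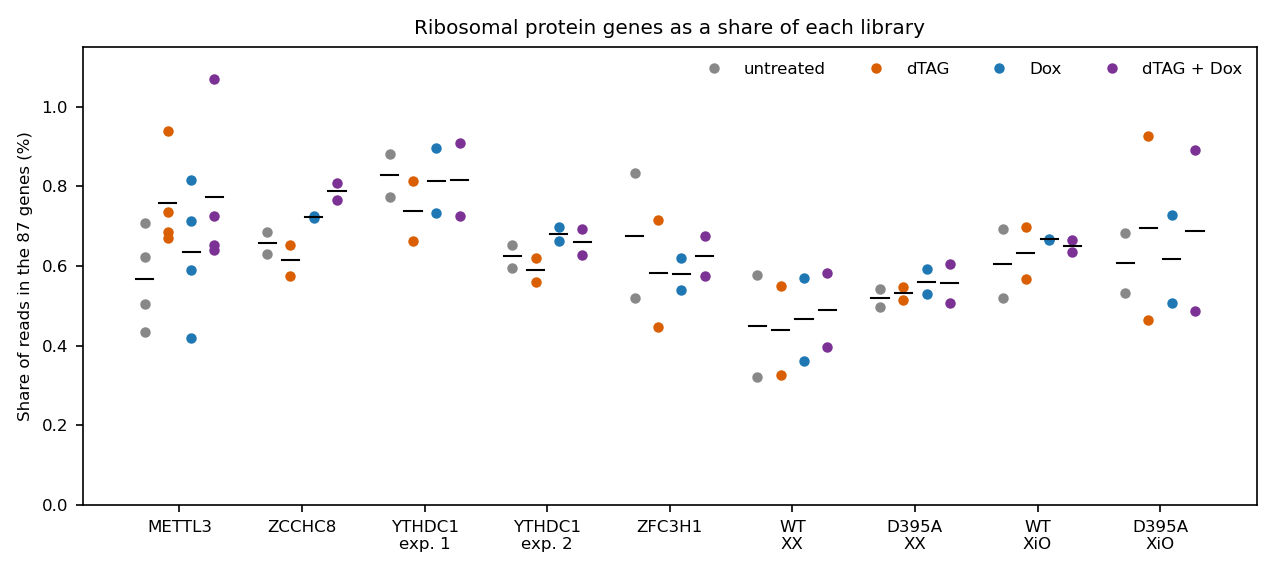
Share of all counted reads, in percent, that fell on the 87 ribosomal protein genes, 1 point for each of the 80 libraries by line and treatment, with the mean of each group as a line. The shares lie between 0.322% and 1.07%, and the highest point is METTL3 clone C3 with dTAG and Dox.

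After METTL3 depletion 3 members were called higher and none lower of 81 tested, while 16.2% of all genes were called higher and 20.2% lower. Rpl10l and Rps25 were among them. The median effect was 0.15 over the members and 0.01 over all genes tested. The direction of that median was set by the scaling and by 1 clone. It was 0.37 on CPM as deposited (17 higher, none lower) but fell to -0.12 when libraries were scaled over genes of like span (2 to 10 kb; 1 higher, 7 lower), and it was -0.09 without clone C3 (1 higher, 9 lower).

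The share of reads in short genes differed among METTL3 clones, and within C3 it differed most between libraries. In C3 the members took 0.434% of reads untreated, 0.735% with dTAG, 0.419% with Dox and 1.07% with both. Genes under 3 kb that are not members took 0.663%, 0.983%, 0.371% and 4.20% of the same libraries. They took 1.87% to 2.69% in G4, 0.873% to 2.21% in H1 and 0.852% to 3.09% in H5, so C3 was the lowest clone untreated, with dTAG and with Dox, and the highest with both. The part of this share in the members' values was not tested beyond the alternatives given. With Dox, the median depletion effect of autosomal members was 0.89 in C3, and -0.40, -0.10 and -0.18 in G4, H1 and H5. Without Dox it was 0.58 in C3, and -0.19, 0.14 and 0.23 in G4, H1 and H5. C3 and H5 carry the same C-terminal tag.

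Rpl10l was the member whose METTL3 result did not turn on C3. Its scaled CPM without and with dTAG was 1.27 and 3.43 in G4, 2.07 and 3.63 in H1, 1.32 and 3.52 in C3, and 2.59 and 6.11 in H5. With Dox it was 1.87 and 2.82 in G4, 1.49 and 3.99 in H1, 1.48 and 2.98 in C3, and 2.41 and 5.68 in H5. Every depleted library lay above every library with METTL3. The effect was 0.82 (SE 0.0952, limma adjusted p = 7.67e-05).

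Rps25, a 40S protein gene, had an effect of 0.37 (SE 0.116, limma adjusted p = 0.0224). The call was lost when libraries were scaled over genes of like span (0.11), without clone C3 (0.23) and without clone H5 (0.31).

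In the transgene lines, WT GFP-METTL3 was present while the tagged METTL3 was removed, and D395A, a change in the catalytic site, was set against it. In WT XX cells no member was called (0 of 81 also at an unadjusted p under 0.05), as was no gene of the table (0%), and the median effect of the members was -0.00. In D395A XX cells 1 member was called higher and 1 lower, against 8.99% and 8.1% of all genes. The higher one was Rpl10l and the lower one Rpl22l1, a paralogue of Rpl22.

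Rpl10l in D395A XX cells was 0.612 and 1.20 scaled CPM untreated and 2.83 and 3.63 with dTAG, and 0.506 and 1.00 with Dox and 1.78 and 2.76 with both. Each experiment showed the increase, with an effect of 1.03 (SE 0.204, limma adjusted p = 0.00655). In WT XX cells it was 2.36 and 2.12 untreated, 3.08 and 1.61 with dTAG, 2.28 and 1.50 with Dox, and 2.51 and 1.44 with both. These groups overlapped, and the effect was 0.02. The difference between the D395A and WT effects did not pass for any member (1 at an unadjusted p under 0.05; 2.59% of all genes called). Rpl10l had the lowest adjusted p of the members in that test, 0.10. Rpl22l1 fell by 0.40 in D395A XX cells (SE 0.122, limma adjusted p = 0.0419), a call lost on CPM as deposited, over genes of like span, with no filter, with edgeR, in either arm alone and without either experiment. That of Rpl10l was lost with Dox only and without either experiment.

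In XiO cells no member was called after depletion in either line, 0 of 80 at an unadjusted p under 0.05 as well. Of all genes, 0% were called in WT XiO and 4.99% in D395A XiO cells. The difference between the lines was called for no member (1 at an unadjusted p under 0.05) and for 0.0297% of all genes, and the lowest adjusted p of a member was 0.495, for Rps4l. The 2 D395A XiO experiments had median autosomal effects of -0.28 and 0.22. The median SE of a member was 0.270 in WT XiO cells and 0.204 in WT XX cells, against 0.059 in the ZCCHC8 line. These errors are not alike, since the transgene lines were fitted without a block for experiment and the ZCCHC8 line with a block for clone. Libraries of the same experiment deviated together in each transgene line (lowest correlations 0.43 to 0.87), which adds to the error without a block. As fitted, effects of the size of the ZCCHC8 median (-0.14) were within the error of a single member in the transgene lines.

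ZCCHC8 depletion moved the largest number of members of the depletions compared. Of 81 tested, 14 (17.3%) were called higher and 39 (48.1%) lower, while 26.9% and 28.9% of all genes were. The median effect was -0.14 over the members and -0.02 over all genes. The median over autosomal members was -0.11 in one clone and -0.09 in the other. By subunit, 10 of 48 large subunit members were higher and 20 lower, and 4 of 33 small subunit members were higher and 19 lower. The counts depended on the clone term and on Z12H. Without the replicate block that pairs libraries of a clone they were 8 higher and 14 lower, and 30 members were called without Z12H. With the share of reads in short genes as a covariate 34 were called.

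Rps16, which encodes a 40S protein, had the largest increase. In clone Z4F it was 9.4 scaled CPM untreated, 50.3 with dTAG, 29.6 with Dox and 65.3 with both, and in clone Z12H it was 12.6, 54.8, 9.50 and 74.2. All 4 depleted libraries lay above the other 4, of which Z4F with Dox stood nearest. The effect was 2.07 (SE 0.214, limma adjusted p = 3.31e-07).

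Rpl32, a 60S protein gene, was 53.3, 72.1, 61.6 and 104.8 scaled CPM in Z4F in the same order and 62.4, 88.5, 70.0 and 120.1 in Z12H. Each depleted library was above its own control and above all libraries without dTAG. Its effect was 0.61 (SE 0.0436, limma adjusted p = 3.29e-09). Rps3a1, a 40S protein gene, was 77.8, 104.7, 92.9 and 131.9 in Z4F and 93.5, 126.2, 90.0 and 139.3 in Z12H, again without overlap. Its effect was 0.49 (SE 0.0524, limma adjusted p = 4.62e-07).

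The largest decreases were in Rpl22l1, Rps19 and Rps26. Rpl22l1 was 21.8 scaled CPM untreated, 10.9 with dTAG, 23.9 with Dox and 14.2 with both in Z4F, and 29.7, 17.4, 27.6 and 12.6 in Z12H, so that all 4 depleted libraries lay below the others. It fell by 0.87 on the log2 scale (SE 0.106, limma adjusted p = 2.73e-06). Rps19, a 40S protein gene mutated in Diamond-Blackfan anaemia, was 110.5, 84.0, 132.5 and 112.0 in Z4F and 111.8, 74.8, 118.2 and 88.3 in Z12H. It fell in both clones and with or without Dox, by 0.41 (SE 0.058, limma adjusted p = 1.52e-05), although the depleted Z4F library with Dox reached the untreated ones. Rps26, a 40S protein gene, was 29.1, 23.8, 36.3 and 30.045 in Z4F and 33.3, 22.5, 29.0 and 20.0 in Z12H, where the groups overlapped across clones but not within one at matched Dox. Its effect was -0.40 (SE 0.0837, limma adjusted p = 0.000612).

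**Figure D2:**
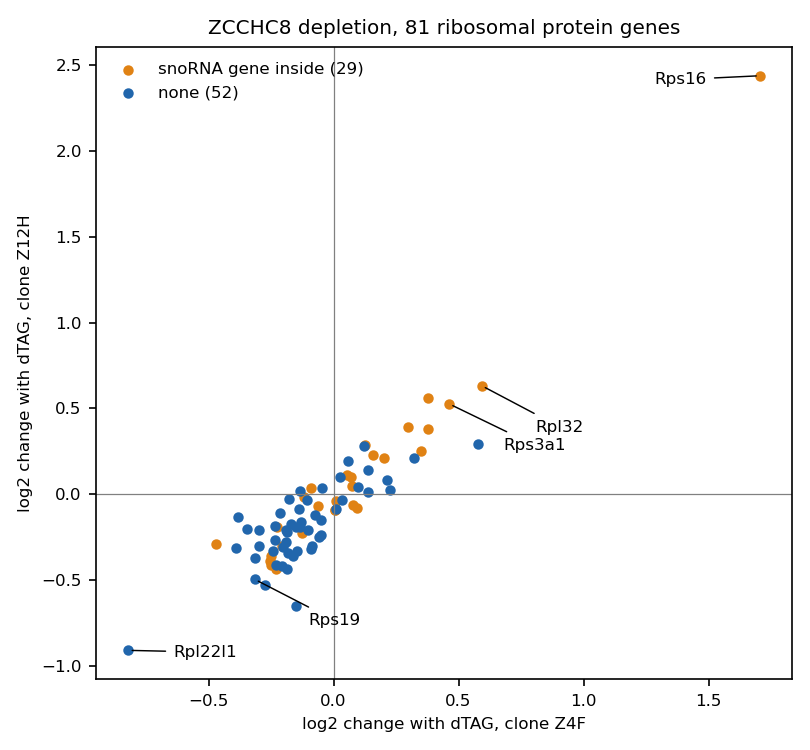
Change with dTAG in clone Z4F (x axis) against clone Z12H (y axis), as log2 differences averaged over the arms with and without Dox, for each of the 81 tested members (X-linked members and paralogues included), coloured by whether a snoRNA gene lies inside the gene. Rps16 stands apart in both clones, Rpl32 and Rps3a1 lie above 0 in both, and Rpl22l1 and Rps19 lie below 0 in both.

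The ZCCHC8 effects are given by snoRNA content. Among the 27 core autosomal hosts tested (ribosomal proteins that are not paralogues), 10 were called higher and 6 lower, 15 lay above 0, and effects ran from -0.33 to 2.07 with a median of 0.01. Among the 42 core autosomal members without a snoRNA, 1 was called higher and 27 lower, 5 lay above 0, and effects ran from -0.41 to 0.15 with a median of -0.20. The shares of all genes called in each direction, 26.9% and 28.9%, are the background for these counts. With Dox in both arms the hosts had 13 higher and 5 lower and the others 1 and 9, against 21.4% and 22.7% of all genes, and without Dox 7 and 5 against 0 and 25, with 19.9% and 16.5% of all genes.

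The 10 hosts called higher are listed whole, with names beyond the largest effects chosen after their values were seen. Beside Rps16, Rpl32 and Rps3a1 they were Rpl6 (0.47), Rps12 (0.38), Rpsa (0.34), Rpl5 (0.30), Rpl23 (0.21), Rpl27a (0.21) and Rpl12 (0.19). The 6 hosts called lower included Rpl3 (-0.33), Rps13 (-0.33), Rpl13 (-0.32), Rpl23a (-0.31) and Rpl37 (-0.18). Grouped by the name of the snoRNA, a grouping added after values were seen, the 9 hosts of a Snora gene, the H/ACA kind, had 6 higher and none lower with a median of 0.21. The 14 hosts of a Snord gene, the C/D kind, had 3 higher and 6 lower with a median of -0.05. Rps12 holds both names and is counted in both. Rps16, Rpl6, Rpl21, Rpl7a and Rps20, whose snoRNAs carry neither name, are in neither group, though Rps16 and Rpl6 were called higher. The kind of a snoRNA with another name was not read. Some hosts may thus hold both kinds, as Rpl5 holds Gm22270 and Gm26387 beside Snord21. The X-linked hosts, Rpl10 with Snora70 and Rpl39 with Snora69, stand outside these counts, and both were called lower (-0.38 and -0.25). Because the counts cover introns, reads of a snoRNA or of its unprocessed intron add to its host, and their part in these effects was not tested.

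Genes outside the ribosome with shared properties were set beside the members. The TOP list holds 19 genes: translation factors, other mRNAs listed as TOP, and Larp1, which binds the TOP. A tract was found in 6 of its 13 genes with a promoter entry (46.2%). Of the 19, all tested, 2 were higher and 11 lower after ZCCHC8 depletion (median -0.17). Of 30 ribosome biogenesis genes 3 were higher and 11 lower (median -0.11). Of 8 snoRNA hosts that encode no ribosomal protein 2 were higher and 2 lower (median -0.04), and of 15 other abundant short genes none was higher and 5 were lower (median -0.12).

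After YTHDC1 depletion more members were called lower than higher. In the first experiment 2 of 81 were called higher (2.47%) and 24 lower (29.6%), while 16.8% and 16.7% of all genes were, and the members' median was -0.13. The calls lay in the arm without Dox, where 1 was higher and 27 were lower (10% and 9.42% of all genes; median -0.20), while with Dox 3 were higher and 1 lower (8.04% and 7.09%; median -0.05). The difference between the arms was called for no member, with 21 at an unadjusted p under 0.05. In the second experiment 1 was called higher (1.23%) and 15 lower (18.5%), while 16.4% and 15.6% of all genes were, with a median of -0.06. The share called lower in the second experiment was thus near that of all genes. The counts rested on single clones and on the block: without it 3 and 1 members were called, without clone Y9F 6 and without clone Y12H 3 in the first experiment, and in the second 4 without the Dox library of Y12H, 7 without the Dox library of Y9F, 9 without its untreated library and 10 without its library with both.

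The experiments share clones but no libraries. Of 81 members, 60 had effects below 0 in both and 9 above 0 in both, and 10 were called lower in both (41.7% of the 24 and 66.7% of the 15). They included Rpl14, Rpl23a, Rpl35a, Rpl37a, Rpl7l1, Rpl8, Rps10, Rps24 and Rps3, of which some fall outside the naming rule and were chosen after their values were seen. Rpl10l was the member called higher in both. Shared signs and shared calls were not counted over all genes, so these counts show nothing particular to the members.

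Rpl10l rose in each clone and experiment. In the first experiment it was 2.32 scaled CPM untreated, 4.72 with dTAG, 2.03 with Dox and 4.53 with both in Y9F, and 2.11, 4.19, 1.71 and 3.20 in Y12H. In the second it was 1.63, 3.65, 0.995 and 2.60 in Y9F and 1.13, 2.53, 0.784 and 2.34 in Y12H. No depleted library overlapped a control library of its experiment. The effects were 0.76 (SE 0.0997, limma adjusted p = 2.08e-05) and 0.83 (SE 0.101, adjusted p = 2.74e-06).

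The decreases of largest size in the first experiment included those of Rps10, a 40S protein gene (-0.31, limma adjusted p = 0.00019), and Rpl7l1, a paralogue of Rpl7 (-0.26, adjusted p = 0.000391). Rps10 was 65.9 scaled CPM untreated, 50.0 with dTAG, 65.1 with Dox and 61.1 with both in Y9F, and 56.7, 40.1, 55.2 and 45.3 in Y12H. The decrease was present in each of the 4 matched pairs and was smallest in Y9F with Dox. In the second experiment they included those of Rpl7l1 (-0.19, limma adjusted p = 0.00432) and Rpl35, a 60S protein gene (-0.19, adjusted p = 0.0137). By snoRNA content, hosts had 0 higher and 8 lower of 27 and the others 0 and 15 of 42 in the first experiment. In the second they had 0 and 5 against 0 and 9. Of 30 ribosome biogenesis genes 0 were higher and 15 lower in the first experiment, and 1 and 6 in the second (medians -0.13 and -0.08). The 19 genes of the TOP list had 0 and 5, then 0 and 3 (medians -0.08 and -0.07). The 15 other abundant short genes had 0 and 1, then 1 and 4. The 8 snoRNA hosts that encode no ribosomal protein had 1 and 0, then 1 and 1. Of all genes, 16.8% and 16.7%, then 16.4% and 15.6%, were called.

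ZFC3H1 depletion was called for 1 member, while 6.25% of all genes were higher and 3.6% lower. The member was Rpl39l, an autosomal paralogue of Rpl39. It was 3.10 scaled CPM untreated, 2.10 with dTAG, 3.23 with Dox and 1.77 with both in 8H, and 2.97, 1.26, 1.86 and 1.65 in 11A, lower with dTAG in each matched pair and least so in 11A with Dox. The effect was -0.48 (SE 0.132, limma adjusted p = 0.0454), a call lost without the replicate block and in 6 of the 8 fits that left out a library. The members' median was -0.09, and it was 0.08 with Dox and -0.26 without. The arms differed alike in both clones, with autosomal medians of 0.09 and 0.09 with Dox and -0.24 and -0.27 without in 8H and 11A. Their difference lay above 0 for 80 of 81 members (median 0.34) and for 6732 of all 13544 genes. It also lay above 0 for 8 of 8 snoRNA hosts that encode no ribosomal protein (median 0.27) and 13 of 15 other abundant short genes (0.19). The same held for 26 of 30 ribosome biogenesis genes (0.14), 14 of 19 genes of the TOP list (0.13) and 3 of 7 mES markers (-0.01). The difference was called for no member, with 24 at an unadjusted p under 0.05, and for 0% of all genes. The fit had 3 residual degrees of freedom.

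**Figure D3:**
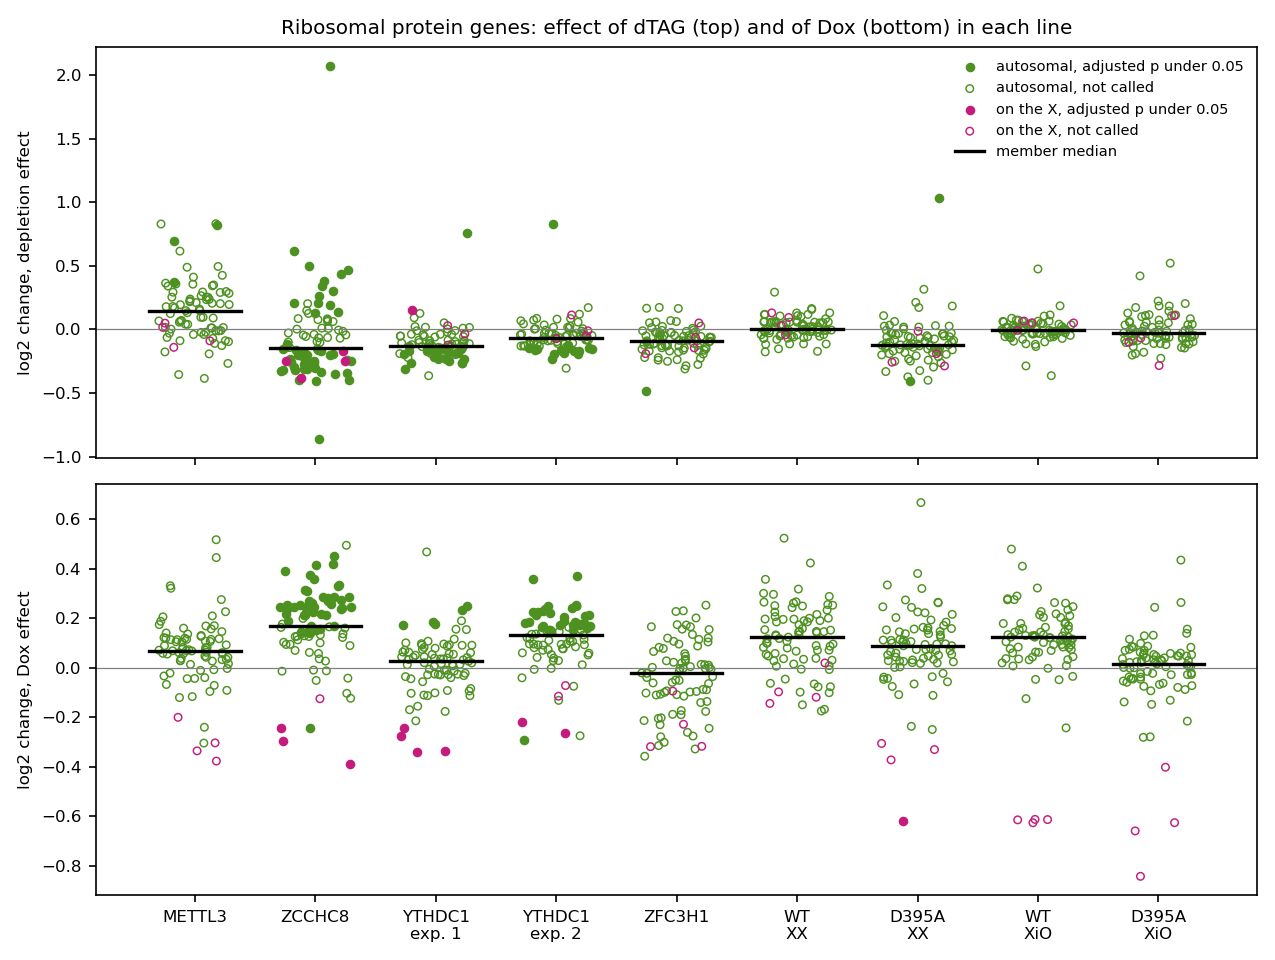
Depletion effect (top) and Dox effect (bottom) of every tested member in each line, as log2 differences, 1 point a gene, with X-linked members in magenta, filled points for an adjusted p under 0.05 and the median of the members as a line. Rps16 reaches 2.07 after ZCCHC8 depletion, and X-linked members lie below the median of the members for Dox in every line.

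The paralogues differed among lines. After ZCCHC8 depletion Rpl10l (0.43, limma adjusted p = 0.00134), Rpl39l (0.26, adjusted p = 0.0467) and Rpl7l1 (0.14, adjusted p = 0.0187) were higher, and Rps27l (-0.16, adjusted p = 0.036) was lower beside Rpl22l1. Rpl10l was thus called higher after METTL3, YTHDC1 and ZCCHC8 depletion and in D395A XX cells, though these lines were fitted in separate tables or with separate controls and were not tested against each other. Copies of near identical sequence share reads that do not align uniquely, and unique alignment leaves those out of both copies.

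Fau, which encodes a ribosomal protein fused to a ubiquitin-like sequence, and Rack1, a scaffold on the 40S head, fall outside the symbol rule. Fau fell after ZCCHC8 depletion (-0.23, limma adjusted p = 0.0102). Rack1, listed as Gnb2l1, was higher after ZCCHC8 depletion (0.23, limma adjusted p = 0.000282) and lower in both YTHDC1 experiments (-0.29, adjusted p = 9.29e-05, and -0.21, adjusted p = 0.00147). Its effect was 0.11 after METTL3 depletion (limma adjusted p = 0.569) and 0.00 after ZFC3H1 depletion.

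**Figure D4:**
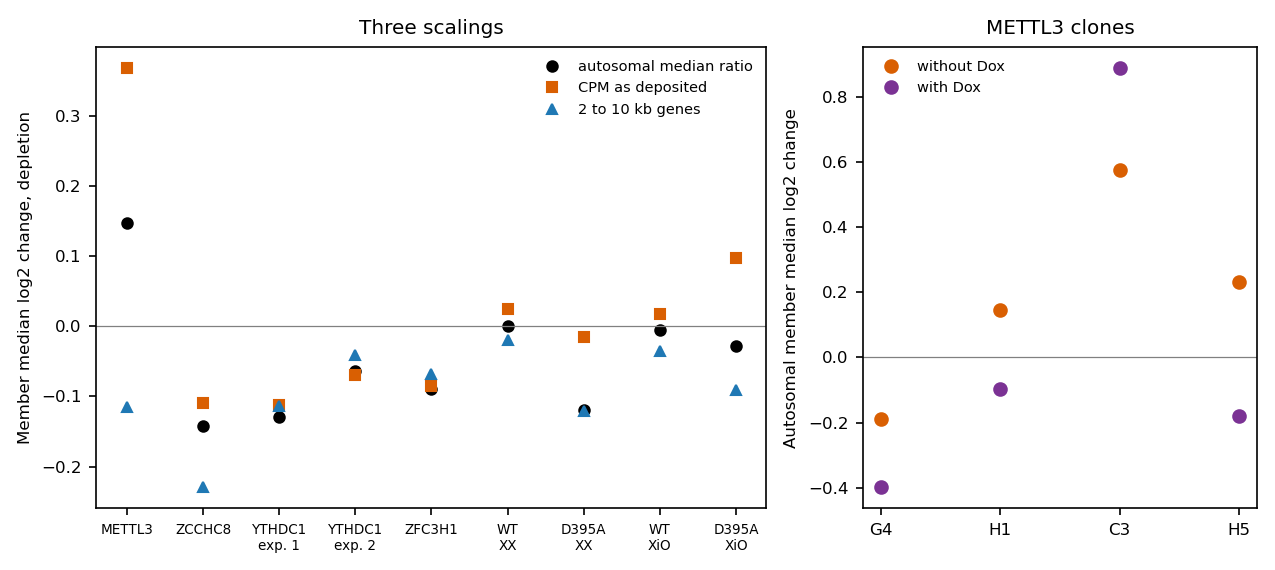
Left, median depletion effect of the members in each line, as log2 difference, under 3 scalings. Right, median effect of autosomal members in each METTL3 clone with and without Dox. The METTL3 median runs from 0.37 on CPM as deposited to -0.12 over genes of 2 to 10 kb, that of D395A XiO cells from 0.10 to -0.09 and those of both WT lines also cross 0, and clone C3 stands highest with and without Dox.

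With Dox, which turns on Xist, many autosomal members were called higher in 2 of the sets and some X-linked ones lower. Every line had an inducible Xist, so Dox itself and Xist cannot be told apart. In the ZCCHC8 line 43 of 81 members were called higher (53.1%) and 4 lower (4.94%), while 13.6% and 19.1% of all genes were. Of the 4 lower, 3 were on the X, and the fourth was Rps19bp1 (-0.24). The autosomal median was 0.19 and the X-linked median -0.27. The autosomal median was 0.32 in clone Z4F and 0.06 in Z12H, and the count was 19 without Z4F and 12 without the replicate block. It was 0.11 for all members without dTAG (2 higher, 3 lower, against 3.2% and 7.1% of all genes) and 0.24 with dTAG (37 higher, 2 lower, against 10.2% and 16.6%). The largest increases were those of Rpl10a (0.45, limma adjusted p = 2.6e-06), Rpl3 (0.42, adjusted p = 3.14e-06) and Rpl13a (0.42, adjusted p = 5.48e-07), all 60S protein genes. Rpl10a was 119 scaled CPM untreated, 106 with dTAG, 130 with Dox and 157 with both in Z4F, and 119, 114, 147 and 200 in Z12H.

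In the second YTHDC1 experiment 32 members of 81 were higher with Dox (39.5%) and 3 lower (3.70%), against 6.97% and 11.5% of all genes, with a median of 0.13. The count was 16 without the Dox library of Y12H, 20 without its untreated library, 19 without the Dox library of Y9F, and 0 without the replicate block. The largest increases were those of Rps29 (0.37, limma adjusted p = 0.000524), Rpl36al (0.36, adjusted p = 0.0114), an autosomal copy of Rpl36a, and Rps28 (0.25, adjusted p = 0.00543). Rps4l, an autosomal copy of Rps4x, was lower (-0.29, limma adjusted p = 0.012).

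Other lists moved with Dox in these 2 sets. Of the 8 snoRNA hosts that encode no ribosomal protein, 4 were higher in the ZCCHC8 line and 6 in the second YTHDC1 experiment, and none was lower (medians 0.21 and 0.24). Of 15 other abundant short genes 7 were higher and 3 lower in the ZCCHC8 line, and none higher and 4 lower in the second YTHDC1 experiment. Of the 10 fibroblast markers, 3 could be tested in the ZCCHC8 line (1 lower, median -0.24) and 4 in the second YTHDC1 experiment (2 lower, median -0.19). Their summed level was 39.3 to 45.6 CPM without Dox and 34.3 to 40.3 with Dox in the ZCCHC8 line, and 24.6 to 48.3 and 23.2 to 41.8 in the second YTHDC1 experiment. Fbn1 made up most of it (17.8 to 44.3 scaled CPM over both), each other marker was at or below 2.52, and Lum was at 0 throughout the second YTHDC1 experiment. Their part in the members' Dox effects was not tested.

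In the first YTHDC1 experiment 5 members were higher with Dox and 4 lower, against 10.3% and 15.7% of all genes, with a median of 0.03. The largest increases were those of Rplp2, a protein of the 60S stalk (0.25, limma adjusted p = 0.000863), Rpl28 (0.23, adjusted p = 0.0339) and Rpl13 (0.18, adjusted p = 0.0363), and the 4 lower members were those on the X. The count was 2 without clone Y12H and 2 without the replicate block. Members called higher with Dox in both experiments were Rpl13, Rpl3 and Rps19 (60% of the 5 and 9.38% of the 32). Effects had the same sign for 50 of 81 members, and neither overlap was counted over all genes. Rack1 was higher with Dox in the ZCCHC8 line (0.17, limma adjusted p = 0.0074) and in the second YTHDC1 experiment (0.17, adjusted p = 0.012).

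In the METTL3 and ZFC3H1 lines no member was called with Dox (2 and 16 of 81 at an unadjusted p under 0.05), while 3.32% and 4.39% of all genes were. No member was called in WT XX (3 at an unadjusted p under 0.05; 0.688% of all genes), WT XiO (1; 2.51%) or D395A XiO cells (2; 2.37%). In D395A XX cells 1 member was called lower and none higher, against 1.91% and 0.322% of all genes.

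The X-linked members are described by gene and not as replicates of each other. Rpl10 joins the 60S subunit late in its assembly, Rpl39 lies at the exit tunnel of the 60S subunit, Rpl36a is another 60S protein, and Rps4x is a 40S protein. Rps4x had a Dox effect of -0.34 in METTL3, -0.29 in ZCCHC8, -0.34 and -0.22 in the YTHDC1 experiments, and -0.32 in ZFC3H1 cells. It was called in ZCCHC8 (limma adjusted p = 0.000129) and both YTHDC1 experiments (adjusted p = 4.09e-05 and 0.00168), and not in METTL3 (adjusted p = 0.207) or ZFC3H1 cells (adjusted p = 0.082).

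In the ZCCHC8 line Rps4x was 126 scaled CPM untreated, 111 with dTAG, 106 with Dox and 97.8 with both in Z4F, and 159, 137, 120 and 107 in Z12H. In the first YTHDC1 experiment it was 185, 176, 145 and 156 in Y9F and 176, 152, 122 and 124 in Y12H, and in the second 138, 135, 112 and 116 in Y9F and 136, 129, 117 and 117 in Y12H. Each library with Dox lay below its matched library without Dox in these 3 sets.

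Rpl36a was lower with Dox in ZCCHC8 (-0.39, limma adjusted p = 6.11e-05), in the first YTHDC1 experiment (-0.34, adjusted p = 0.000276) and in D395A XX cells (-0.62, SE 0.135, adjusted p = 0.0386). In D395A XX cells it was 58.7 and 65.9 scaled CPM untreated and 41.4 and 40.3 with Dox, and 54.6 and 49.0 with dTAG and 29.9 and 35.7 with both, with no overlap. This call was lost on CPM as deposited, with no filter, with edgeR, without dTAG and without either experiment. The effect was -0.38 in METTL3, -0.23 in ZFC3H1 and -0.12 in the second YTHDC1 experiment, none of which passed.

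Rpl10 was lower with Dox in both YTHDC1 experiments (-0.27, limma adjusted p = 0.000657, and -0.26, adjusted p = 0.0037) and not called in ZCCHC8 (-0.13, adjusted p = 0.070), METTL3 (-0.20) or ZFC3H1 cells (-0.32). Rpl39 was lower in ZCCHC8 (-0.24, limma adjusted p = 0.00583) and the first YTHDC1 experiment (-0.24, adjusted p = 0.007). It was -0.30 in METTL3, -0.07 in the second YTHDC1 experiment and -0.10 in ZFC3H1 cells. The last of these changed sign without an 8H library.

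In XiO cells effects of Dox were -0.61 to -0.63 in WT cells and -0.66, -0.63, -0.40 and -0.84 for Rpl10, Rpl36a, Rpl39 and Rps4x in D395A cells, none of which was called. With the experiment as a replicate block 3 members were called in each line, Rpl10, Rpl36a and Rpl39 in WT and Rpl10, Rpl36a and Rps4x in D395A cells. Rps4x in WT XiO cells was 84.0 and 89.6 scaled CPM untreated, 90.7 and 95.2 with dTAG, 62.8 and 52.0 with Dox, and 59.3 and 57.7 with both. In D395A XiO cells it was 80.7 and 100 untreated, 67.5 and 168 with dTAG, 45.7 and 65.3 with Dox, and 35.4 and 81.1 with both. The WT groups did not overlap and the D395A experiments lay apart. In WT XX cells the 4 effects were between -0.14 and 0.02.

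**Figure D5:**
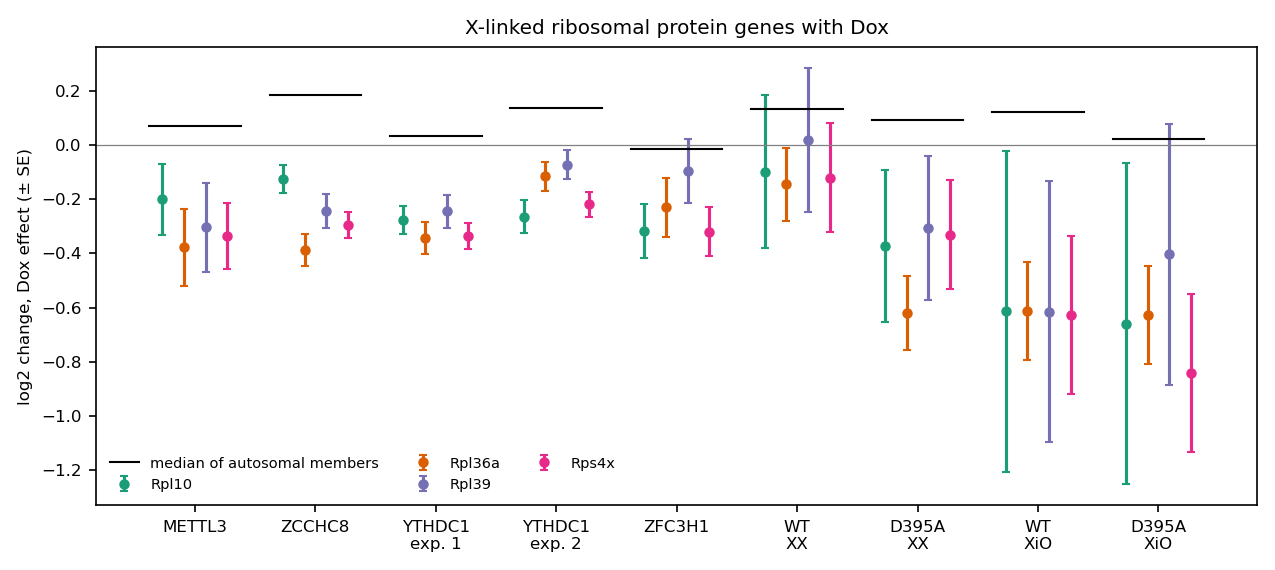
Dox effects of the X-linked members Rpl10, Rpl36a, Rpl39 and Rps4x in each line, as log2 differences with standard errors, beside the median of the autosomal members (black line). Every effect lies below that median, and below 0 except for Rpl39 in WT XX cells (0.02).

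Depletion changed the X-linked members in few lines. All 4 were lower after ZCCHC8 depletion (28.9% of all genes were), Rpl10 by -0.38, Rpl36a and Rpl39 by -0.25 each and Rps4x by -0.17, and Rpl10 was higher in the first YTHDC1 experiment (0.15, limma adjusted p = 0.0327). The difference between depletion with and without Dox passed for no X-linked member, with a lowest adjusted p of 0.488 (Rpl10, ZCCHC8). Over all members that difference was called for Rpl13a and Rplp1 in the ZCCHC8 line, where 0.0216% of all genes were called higher and 0.39% in either direction. No member was called for it elsewhere, against 0% of all genes in METTL3, ZFC3H1 and the 4 transgene lines, 0.00722% in the first and 0.0146% in the second YTHDC1 experiment.

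Reads that cover a difference between Cast and 129S tell the X chromosomes apart, and the deposited allelic ratio is the share of such reads that came from Xi, the chromosome whose Xist is under Dox control. Of the members, Rpl10 and Rps4x had a ratio. With Dox alone against untreated, the ratio of Rps4x changed by -0.164 in METTL3, -0.175 in ZCCHC8, -0.196 and -0.150 in the YTHDC1 experiments, -0.162 in ZFC3H1, -0.136 in WT XX and -0.204 in D395A XX cells, all called lower by limma. That of Rpl10 changed by -0.090, -0.142, -0.148, -0.124, -0.050, -0.063 and -0.142 in the same order, and did not pass in ZFC3H1 (adjusted p = 0.11) or WT XX cells (adjusted p = 0.11). The ratio was called lower for 89.9%, 93.5%, 93.5%, 89.6%, 55.6%, 87.8% and 92.4% of X-linked genes in that order. Their median change was -0.185, -0.234, -0.236, -0.220, -0.166, -0.207 and -0.273, below 0 by more than that of either member in each line.

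Depletion during Xist expression was read from dTAG_Dox minus Dox. The Rpl10 ratio was lower by -0.083 in METTL3 (limma adjusted p = 0.0021; 55.1% of X-linked genes called lower) and by -0.105 in ZCCHC8 cells (adjusted p = 0.0015; 47.1%). The Rps4x ratio was lower by -0.055 in ZCCHC8 (limma adjusted p = 0.0056) and by -0.077 in D395A XX cells (adjusted p = 0.022; 20.7%), and changed by -0.045 in METTL3 cells (adjusted p = 0.053). The Rpl10 change in D395A XX cells was -0.090 (limma adjusted p = 0.085). When the ratios were fitted as log odds, this change passed (limma adjusted p = 0.020), as did that of Rps4x in METTL3 cells (limma adjusted p = 0.0496). These 2 results thus depended on the scale of the ratio. In the first YTHDC1 experiment the changes were 0.045 for Rpl10 and 0.032 for Rps4x (adjusted p = 0.079 each; 14.8% of X-linked genes called in either direction), and in the second 0.030 and 0.013 (0%). In ZFC3H1 cells they were -0.034 and 0.019 (0%), and in WT XX cells -0.010 and -0.005 (0.488%), none of which passed.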

How the data were processed

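ChrRNA-seq libraries were made with a stranded total RNA kit. According to the submitters' processing notes and the study's methods, the authors removed ribosomal RNA reads with Bowtie2, aligned to an N-masked mm10 genome with STAR, kept unique alignments, split alleles with SNPsplit and counted reads by strand over whole transcript spans with featureCounts. The deposited values are CPM, made by the authors with edgeR, and allelic ratios, the fraction Xi/(Xi + Xa). Of the CPM values 100% came out as whole multiples of 1 read, to within 0.0001 CPM, so reads were recovered for an edgeR test. In all, 24 columns that name no listed sample were not used.

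CPM were divided by the median ratio over autosomal genes, and log2(scaled CPM + 1) was fitted with limma 3.58.1 (lmFit and eBayes with trend) in R 4.3.3, over all libraries of a table, for genes whose table mean was 1 CPM or more. Fold changes are on that scale and understate those of low genes. In the degron lines the clone entered as a block, since libraries of the same number come from the same clone, and the transgene lines had none, since their numbers mark experiments. Same-numbered libraries of the YTHDC1, ZCCHC8 and ZFC3H1 lines deviated together (lowest correlation 0.18), whereas those of METTL3 reached -0.19. Experiments of a transgene line also deviated together (lowest correlations 0.43 to 0.87), but across the WT and D395A lines the lowest was -0.42 in XX and 0.52 in XiO cells. Adjusted p-values are Benjamini-Hochberg over all genes. Differences between D395A and WT were interaction terms. Allelic ratios were fitted with limma likewise. The depth behind single ratios was not used here, since the tables give no read numbers.

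The members, lists and tests were chosen with earlier results of these data known. Named were X-linked members, the 3 largest called rises and falls of each depletion and Dox effect, paralogues, Fau and Rack1, the highest and lowest member per kb, and members that failed the filter; some genes that this rule takes are not reported here. Older symbols were matched through RefSeq synonyms. Alternatives were CPM as deposited, scaling over genes of 2 to 10 kb, a pseudocount of 0.25, no filter, edgeR 4.0.16 quasi-likelihood on recovered reads, the share of reads in genes under 3 kb as covariate, the block, each arm alone and each replicate left out. Allelic ratios were also fitted as log odds and with the block changed. The fits were also run on simulated counts with known changes. The simulation used a dispersion shared by all genes, no scaling and no differences between clones, so it does not bear on those choices. No pair of the 56 replicate pairs held identical values. Start windows come from RefSeq and snoRNAs from GENCODE, on GRCm38.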

Additional observations from a re-analysis of the deposited data

Results flagged for a closer look

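In the METTL3 line, where a group had 4 clones, 32 groups of values were tested for a sample far from the others, and chance gives about 1 in 20. With dTAG, Rpl10l was 6.11 scaled CPM in clone H5 and 3.43, 3.52 and 3.63 in the others.

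In the ZCCHC8 line the depletion effect differed between cells with and without Dox for 2 members, by an interaction term in limma. For Rpl13a, a 60S protein gene, the effect with Dox was higher by 0.44 (SE 0.084, adjusted p = 0.023). Rpl13a was 153 scaled CPM untreated, 117 with dTAG, 171 with Dox and 189 with both in Z4F, and 151, 131, 177 and 198 in Z12H, so that dTAG lowered it without Dox and not with Dox in both clones. For Rplp1, a protein of the 60S stalk, the effect was higher by 0.54 (SE 0.114, adjusted p = 0.046), with 36.05, 22.7, 37.0 and 35.6 in Z4F and 33.4, 24.2, 38.8 and 40.0 in Z12H.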

How the results depend on the processing

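Numbers of members called after depletion moved as follows. METTL3 (3 called) gave 17 on CPM as deposited, 8 with scaling over genes of like span, 1 with Dox only, 1 without Dox only, and 2 to 10 with a clone left out (10 without C3). ZCCHC8 (53) gave 34 with the short-gene covariate, 22 with no replicate block, 34 with Dox only and 30 to 46 with a clone left out (30 without Z12H). The first YTHDC1 experiment (26) gave 16 with no filter, 3 with no replicate block, 4 with Dox only and 3 to 6 with a clone left out. The second (16) gave 5 with scaling over like span, 9 with no filter, 1 with no replicate block, 3 with Dox only, 4 without Dox only and 4 to 19 with a library left out. ZFC3H1 (1) gave 12 with the covariate, 0 with scaling over like span, no filter, no replicate block or either arm alone, and 0 to 2 with a library left out (2 without 11A with dTAG and Dox). D395A XX (2) gave 1 on CPM as deposited, over like span, with no filter, with edgeR or without Dox, 0 with Dox only and 0 without either experiment. D395A XiO (0) gave 1 with the covariate, and the D395A and WT difference in XX cells (0) gave 1 with it.

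Numbers called with Dox were as follows. ZCCHC8 (47) gave 12 with no replicate block, 5 without dTAG and 19 to 64 with a clone left out. The first YTHDC1 experiment (9) gave 5 with no filter, 1 with the covariate, 2 with no replicate block, 5 without dTAG and 2 to 7 with a clone left out. The second (35) gave 22, 10, 0 and 17 for the same settings and 16 to 35 with a library left out. ZFC3H1 (0) gave 4 with the covariate and 0 to 7 with a library left out (7 without 11A with dTAG and Dox). D395A XX (1) gave 0 on CPM as deposited, with no filter, with edgeR, without dTAG, or without either experiment. WT XiO (0) gave 1 over like span, 2 with the covariate and 3 with the experiment as a replicate block, and D395A XiO (0) gave 1, 1 and 3.

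Of the ZCCHC8 hosts, 5 in place of 10 were higher with the covariate (8 to 10 with a clone left out). Of the members without a snoRNA, 17 with the covariate, 8 with no replicate block and 9 with Dox only, in place of 27, were lower (15 to 24 with a clone left out). Effects of Dox that changed sign were those of Rpl10 in METTL3 without dTAG (0.0186), Rpl39 in WT XX (over like span -0.0040, edgeR -0.038, covariate -0.0089, without dTAG -0.017, from -0.19 to 0.23 with an experiment left out) and Rpl39 in ZFC3H1 (covariate 0.033, from -0.23 to 0.037 with a library left out). Of the other values of single genes, 635 kept direction and side of the threshold, 19 came to pass and 103 no longer passed. Allelic changes kept both in 54 cases and came to pass in 2, those named above for log odds. The causes were not tested. Rps16, Rpl32 and Rps3a1 kept their ZCCHC8 calls under every alternative run, as did Rpl10l in METTL3 and both YTHDC1 experiments. Members near 1 CPM, as Rpl10l is, rest on few reads a library.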

Other observations

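Without Dox, Rpl10 gave more reads from the 129S than from the Cast X in every library with an allelic ratio, whichever X carried the inducible Xist. The 129S share of its reads was 0.563 to 0.639 over 20 libraries with the promoter on the Cast X and 0.526 to 0.675 over 12 libraries with the promoter on the 129S X. For Rps4x the share was 0.502 to 0.544 over the first and 0.461 to 0.522 over the second. These shares hold libraries with and without dTAG and were not tested.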
